A study of Danio rerio with 2 samples.

Results

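Cytoskeletal genes were examined in RNA from intact zebrafish embryos (Danio rerio) of the AB background, taken at 28 hours post fertilization. One library came from embryos homozygous mutant for ezh2 (ezh2-/-) and 1 from wild-type (WT) embryos. The ezh2 gene encodes the methyltransferase of Polycomb repressive complex 2, which marks histone H3 at the lysine tied to silenced developmental genes. Neither the ezh2 allele nor the number of embryos pooled is given in the sources used here. The genes were the rows of the deposited table with the KOG (eukaryotic orthologous group) class Cytoskeleton, or with keratin, myosin, tubulin or actin as a whole word in the best protein match. Rows naming desmosome, plakin, laminin or integrin proteins, and epb41b, were left out. This left 20 of 1287 genes: 8 met both criteria, 7 the class alone and 5 a whole word alone, after 7 rows of these kinds had been removed. No row of the table named a keratin as a whole word, so the set holds no keratin gene and is a set of actin, myosin and microtubule genes.

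The cytoskeleton consists of actin filaments, microtubules built from tubulin, and intermediate filaments such as those of keratin. Myosins pull on actin, and kinesins and dyneins walk along microtubules. In striated muscle, myosin heavy chains form thick filaments and alpha actins form thin filaments, which are anchored at the Z-disc. Outside muscle, nonmuscle myosin drives cell shape change and cytokinesis.

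The table is the authors' own selection: in the authors' deposited table no gene has an FDR above 0.00996 or a log2 fold change smaller than 1 in size. With 1 library per genotype, no test and no spread between replicates can be given, and each difference below compares 2 libraries. Ranges in brackets after a fold are 95% exact (Clopper-Pearson) intervals of the count ratio, which cover counting error alone. The ezh2 gene is not among the listed genes, and its level, which would check the genotypes, was not analysed here. The library totals are unknown. Over the listed genes, counts summed to 764775 in the ezh2-/- library and 799647 in the WT library. Marker genes and gene lists were matched by symbol, which 562 of the 1287 genes had, so a gene without a match may still be in the table. Of 35 marker genes of 7 cell types, 2 were matched, so the whole-embryo label could not be checked on this table. In RNA from whole embryos, fewer cells of a type and less RNA per cell cannot be told apart.

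Most of the 20 genes were higher in the ezh2-/- library, as were most genes of the table. At least 2-fold higher were 16 of the 20, beside 68.1% of the whole table, and 4 of the 20 were lower by at least that fold, beside 31.9%. Their median log2 fold change was 1.35, beside 1.31 over all listed genes. At least 4-fold higher were 3 of the 20, beside 22.5% of the table, and 1 was at least 4-fold lower, beside 4.58%. These shares lie near the background, so the direction of the set as a whole is not a result about cytoskeletal genes. What follows is a description of the genes within it.

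The whole counting interval lay past 2-fold for 13 of the 20 genes, beside 68.0% of all listed genes. For actn2b, filamin-B, GAS2-like protein 1, myo9b, KIF1C, wasf3b and tubb1 the interval reached inside 2-fold. Directions also depend on the scale between the libraries. The scale used for folds is the one implied by the fold changes the authors deposited. A median-centred scale, with the median log2 fold change over the table at 0, shifts every value by -1.31, and a scale with the trimmed mean at 0 shifts it by -1.002. On the median-centred scale myh9a, myo9b, KIF1C, filamin-B, GAS2-like protein 1 and actn2b changed sign, and none of the other 14 did on either of these scales. That median is over genes the authors selected by fold change, so it need not mark no change over all genes. With no scale, or on the relative depth behind the FPKM, none of the 20 changed sign.

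**Figure D1:**
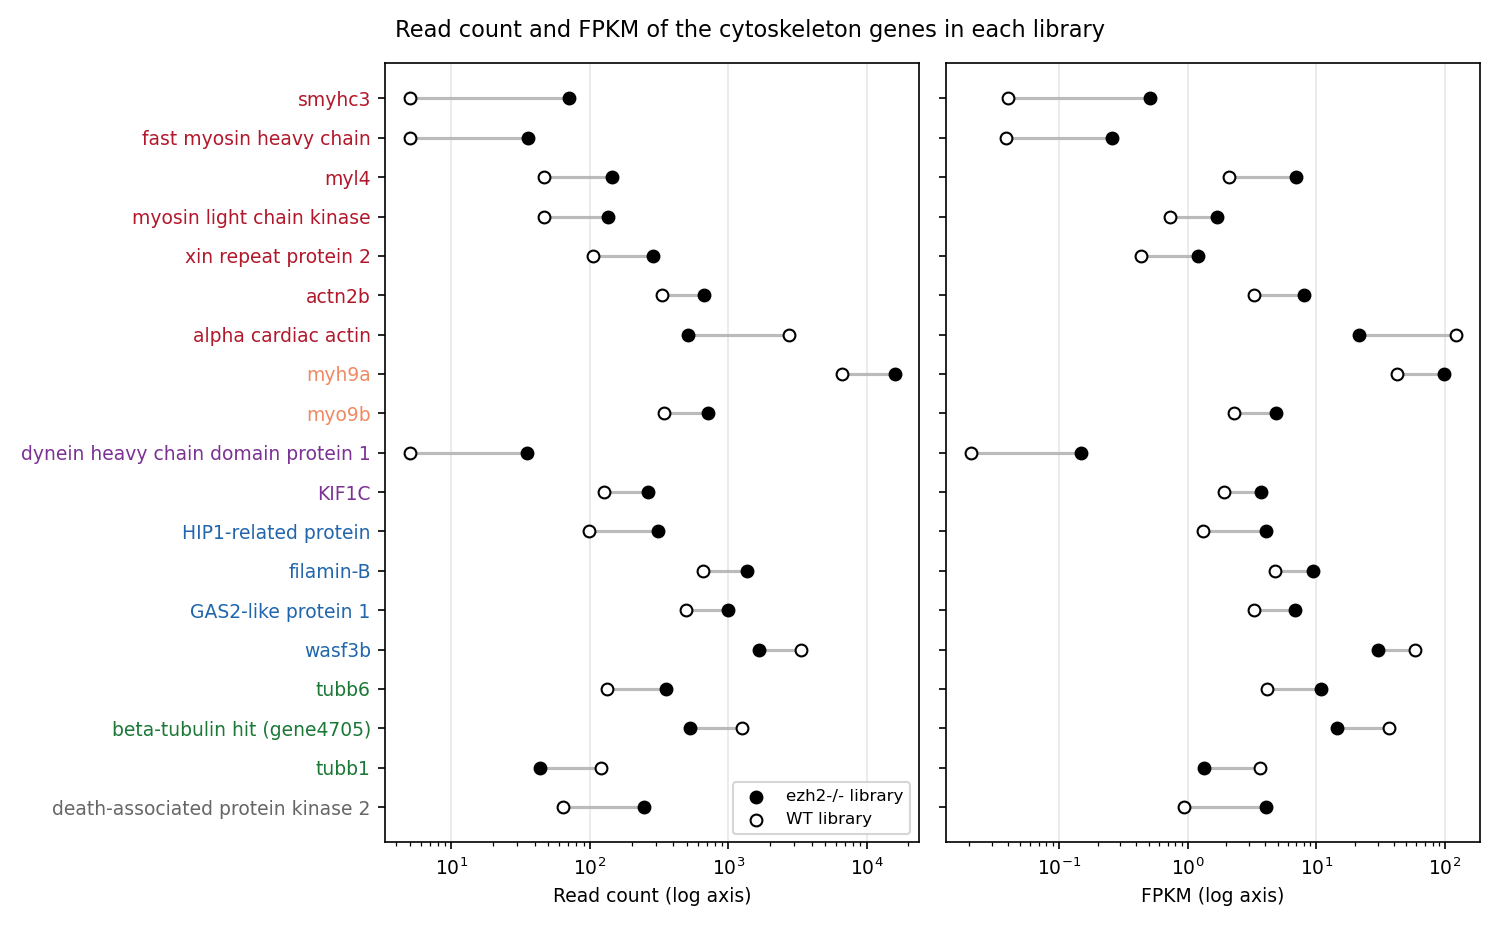
Read counts (left) and FPKM, fragments per kilobase of transcript, scaled to library depth (right), of 19 of the 20 genes, each on a log axis, with filled circles for the ezh2-/- library and open circles for the WT library. On the authors' scale all are higher in the ezh2-/- library but 4, and 6 of the higher ones change sign on the median-centred scale; alpha cardiac actin, wasf3b, tubb1 and the beta-tubulin hit gene4705 are the lower ones.

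Among the 7 genes of muscle myosin and the sarcomere, 6 were higher in the ezh2-/- library on the authors' scale, beside 68.1% of the whole table. On the median-centred scale 5 were higher, without actn2b. On the authors' scale 1 was lower, beside 31.9% of the table. The median log2 fold change of the class was 1.54, beside 1.31 over all listed genes. The largest fold of the set was in smyhc3, which encodes a slow-fibre myosin heavy chain, the motor of the thick filament. It had 71 counts in the ezh2-/- library and 5 in the WT library, 14.3-fold higher (5.87 to 45.5). A fast skeletal muscle myosin heavy chain gene (gene34178, whose closest KEGG match carries the symbol myhz1.1l) had 36 counts in the ezh2-/- library and 5 in the WT library, 7.27-fold higher (2.84 to 23.7). Both heavy chains were at very low levels per length in both libraries. The FPKM of smyhc3 was 0.507 in the ezh2-/- library and 0.0399 in the WT library. That of the fast gene was 0.258 in the ezh2-/- library and 0.0391 in the WT library. Their folds rest on those few WT counts: with 5 counts added to each library the log2 fold change of smyhc3 was 2.94, against 3.71 with 0.5 added, and that of the fast gene was 2.05, against 2.74. Slow and fast myosin heavy chain genes occur as tandem copies of similar sequence in zebrafish, so the division of reads among copies is uncertain. The fast gene lies outside the rule for named genes, as does the Xin-repeat gene below, and both were named after their values were seen.

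The other thick-filament and regulatory genes differed by smaller folds at higher counts. The myosin light chain gene myl4, whose mammalian counterpart is the atrial and embryonic light chain, had 144 counts in the ezh2-/- library and 47 in the WT library, 3.09-fold higher (2.21 to 4.40). Its FPKM was 6.91 in the ezh2-/- library and 2.12 in the WT library, far above either heavy chain. A skeletal and cardiac-type myosin light chain kinase gene (gene1508), of a family that phosphorylates the regulatory light chain, had 136 counts in the ezh2-/- library and 47 in the WT library, 2.92-fold higher (2.08 to 4.16). From FPKM the ratio for this gene was 2.35, on the log2 scale the widest gap between the count and FPKM ratios in the set. Its annotations name different family members, so it is called here by its product name alone.

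The single sarcomere gene that was lower was also the one with the highest FPKM of the 20 in the WT library. An alpha cardiac muscle actin gene (gene31314), the building block of the thin filament, had 512 counts in the ezh2-/- library and 2756 in the WT library, 5.33-fold lower (4.85 to 5.87). Its FPKM was 21.3 in the ezh2-/- library and 121 in the WT library. It was the 1 gene of the set at least 4-fold lower, and its sign was kept on every scale tried. Striated muscle actin genes are nearly identical in coding sequence, and the product name does not say which zebrafish copy this is.

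The Z-disc and junction genes went the other way from the actin on the authors' scale. The gene actn2b, which encodes an alpha-actinin that crosslinks thin filaments at the Z-disc, had 670 counts in the ezh2-/- library and 331 in the WT library, 2.04-fold higher (1.79 to 2.34), but had a median-centred log2 fold change of -0.28. Its FPKM ratio was larger, at 2.45. A Xin actin-binding repeat gene (gene20214), whose mammalian counterparts sit at muscle cell junctions, had 284 counts in the ezh2-/- library and 106 in the WT library, 2.71-fold higher (2.16 to 3.42). Summed over the 6 sarcomere genes other than the actin, counts were 1341 in the ezh2-/- library and 541 in the WT library, a ratio of 2.5 (2.26 to 2.77). Of these counts actn2b held 670 in the ezh2-/- library and 331 in the WT library. On the median-centred scale the summed ratio comes close to no difference. With the actin included, the summed FPKM of the class was 39.9 in the ezh2-/- library and 127 in the WT library, since the actin alone made up most of the WT sum.

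By the GO terms deposited with the table, 3 of the sarcomere genes just described, and no other of the 20, carried a heart or cardiac term. Of these smyhc3 and actn2b were higher, with the exception for actn2b just given, and the alpha cardiac actin was lower. In the list of 20 heart muscle genes, 3 were listed (actn2b, myl4 and gata4) and all 3 were at least 2-fold higher, beside 68.1% of the whole table. The transcription factor gene gata4 had 75 counts in the ezh2-/- library and 19 in the WT library, 3.99-fold higher (2.38 to 6.99). None of the 5 heart markers and none of the 8 fast muscle markers was matched by symbol, and smyhc3 was the 1 matched of 5 slow muscle markers. The actin row names no copy, so whether it is the fast muscle marker actc1b is not known. The counts of muscle genes outside the table are not known, so whether muscle as a tissue differed was not tested.

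**Figure D2:**
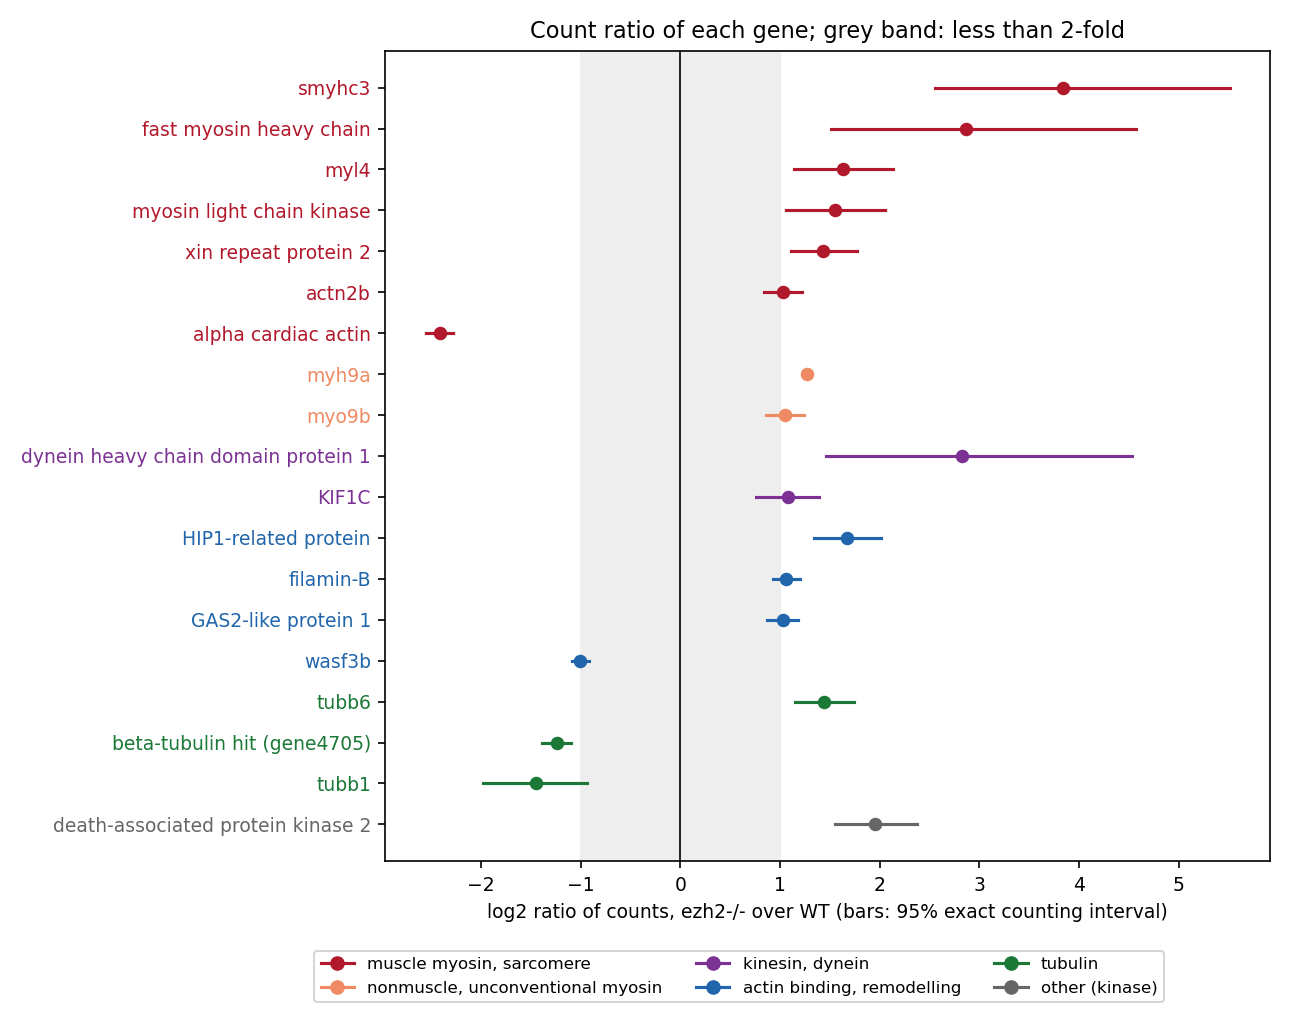
Log2 ratio of counts, ezh2-/- over WT, for 19 of the 20 genes (points) with its 95% exact counting interval (bars, narrower than the point for myh9a), coloured by class; the grey band marks ratios under 2-fold. The 3 genes with 5 WT counts (smyhc3, the fast myosin heavy chain and dynein heavy chain domain protein 1) have the widest bars, and the 7 genes whose bars enter the band include wasf3b.

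Outside muscle, both listed myosin heavy chain genes were higher on the authors' scale, beside 68.1% of the whole table. The gene myh9a encodes the heavy chain of nonmuscle myosin IIA, which contracts actin networks at the cell cortex and in the cytokinetic ring. It had 15884 counts in the ezh2-/- library and 6662 in the WT library, 2.41-fold higher (2.34 to 2.48), but its median-centred log2 fold change was -0.038. Its FPKM was 98.2 in the ezh2-/- library and 42.2 in the WT library. This was the best-counted gene of the set, and held 64.9% of the summed counts of the 20 genes in the ezh2-/- library and 39.9% in the WT library. Without it, the other 19 genes summed to 8589 counts in the ezh2-/- library and 10051 in the WT library. All 20 together summed to 24473 counts in the ezh2-/- library and 16713 in the WT library. Their summed FPKM went the other way, at 234 in the ezh2-/- library and 289 in the WT library. The direction of the summed counts rested on myh9a, whereas the 2-fold counts of genes above did not. The opposite direction of the 19-gene counts rested in turn on the alpha cardiac actin and on wasf3b. Leaving out either of them reversed it. Counts of wasf3b were 1664 in the ezh2-/- library and 3367 in the WT library. The direction of the summed FPKM rested on the alpha cardiac actin. That gene had 512 counts and an FPKM of 21.3 in the ezh2-/- library. In the WT library it had 2756 counts and an FPKM of 121.

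The other nonmuscle gene was myo9b, an unconventional myosin. It had 708 counts in the ezh2-/- library and 346 in the WT library, 2.07-fold higher (1.81 to 2.36), with a median-centred log2 fold change of -0.26. Its FPKM of 4.90 in the ezh2-/- library and 2.30 in the WT library was far below that of myh9a.

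Microtubule motors were represented by 2 genes, both higher on the authors' scale, beside 68.1% of the whole table. The kinesin gene KIF1C (gene36527), whose product carries cargo toward microtubule plus ends, had 263 counts in the ezh2-/- library and 126 in the WT library, 2.11-fold higher (1.70 to 2.63), with a median-centred log2 fold change of -0.23. A gene named dynein heavy chain domain-containing protein 1 (gene21777) had 35 counts in the ezh2-/- library and 5 in the WT library, 7.07-fold higher (2.76 to 23.1). Its FPKM, 0.149 in the ezh2-/- library and 0.0206 in the WT library, was the lowest of the 20. None of 48 cilia genes, among them the axonemal dyneins, was matched by symbol.

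The 3 beta-tubulin genes differed in direction. Beta-tubulin pairs with alpha-tubulin to form the microtubule wall. The gene tubb1, whose mammalian counterpart is the isotype of platelets and their precursors, had 44 counts in the ezh2-/- library and 121 in the WT library, 2.72-fold lower (1.91 to 3.94). A second gene (gene4705) had 530 counts in the ezh2-/- library and 1265 in the WT library, 2.36-fold lower (2.13 to 2.62). Its Swiss-Prot and KEGG matches are beta-tubulins and its GO terms those of a tubulin, but its best protein match in another fish is named mediator of DNA damage checkpoint protein 1-like. Its identity is therefore uncertain. With tubb6 the direction was opposite: 356 counts in the ezh2-/- library and 132 in the WT library, 2.72-fold higher (2.22 to 3.35).

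By level, the beta-tubulin hit gene4705, of uncertain identity, was the most abundant of these in both libraries. Its FPKM was 14.4 in the ezh2-/- library and 36.4 in the WT library. That of tubb6 was 10.9 in the ezh2-/- library and 4.15 in the WT library. In the ezh2-/- library tubb6 thus came close to gene4705, which was well above it in the WT library. Summed over the 3 genes, counts were 930 in the ezh2-/- library and 1518 in the WT library, 1.62-fold lower (1.49 to 1.76). That direction rested on gene4705: tubb1 and tubb6 alone summed to 400 counts in the ezh2-/- library and 253 in the WT library, 1.60-fold higher (1.36 to 1.88), though lower on the median-centred scale. Tubulin isotypes share long stretches of sequence, so reads may have been divided among them, and isotypes outside the table are not included.

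Genes that bind or remodel actin made up 5 of the 20. On the authors' scale 4 were higher, beside 68.1% of the whole table, and 1 was lower. Their median log2 fold change was 1.06, beside 1.31 over all listed genes, so the class did not stand out from the table. On the median-centred scale filamin-B and GAS2-like protein 1 of the 4 turned lower. A huntingtin-interacting protein 1-related gene (gene14528), whose mammalian product links clathrin coats to actin, had 312 counts in the ezh2-/- library and 99 in the WT library, 3.18-fold higher (2.53 to 4.03). It stayed higher on every scale tried.

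The crosslinker genes of this class lay at the 2-fold border. Filamin-B (gene22334), which crosslinks actin and ties it to membrane proteins, had 1355 counts in the ezh2-/- library and 654 in the WT library, 2.09-fold higher (1.90 to 2.30). GAS2-like protein 1 (gene13475), of a family that joins actin to microtubules, had 994 counts in the ezh2-/- library and 493 in the WT library, 2.04-fold higher (1.83 to 2.27). The median-centred log2 fold change was -0.24 for filamin-B and -0.28 for GAS2-like protein 1.

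The lower gene of the class was wasf3b, which encodes a WAVE protein that switches on the Arp2/3 complex to branch actin at the cell edge. It had 1664 counts in the ezh2-/- library and 3367 in the WT library, 2.003-fold lower (1.89 to 2.13), the smallest absolute fold of the 20. Its FPKM of 30.3 in the ezh2-/- library and 58.6 in the WT library was the second highest of the WT values after the alpha cardiac actin. The ratio of FPKM was 1.94-fold lower, inside the 2-fold border. Of 5 neuronal markers 1 was matched by symbol, elavl3, which encodes an RNA-binding protein of neurons. It had 6399 counts in the ezh2-/- library and 13461 in the WT library, 2.08-fold lower (2.02 to 2.15). Its part in the wasf3b value was not tested.

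A further kinase gene met the rule through its Swiss-Prot match alone, a smooth muscle myosin light chain kinase. Its product name is death-associated protein kinase 2 (gene30633), a calmodulin-regulated kinase in mammals. It had 245 counts in the ezh2-/- library and 64 in the WT library, 3.87-fold higher (2.93 to 5.17), with an FPKM of 4.06 in the ezh2-/- library and 0.941 in the WT library.

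**Figure D3:**
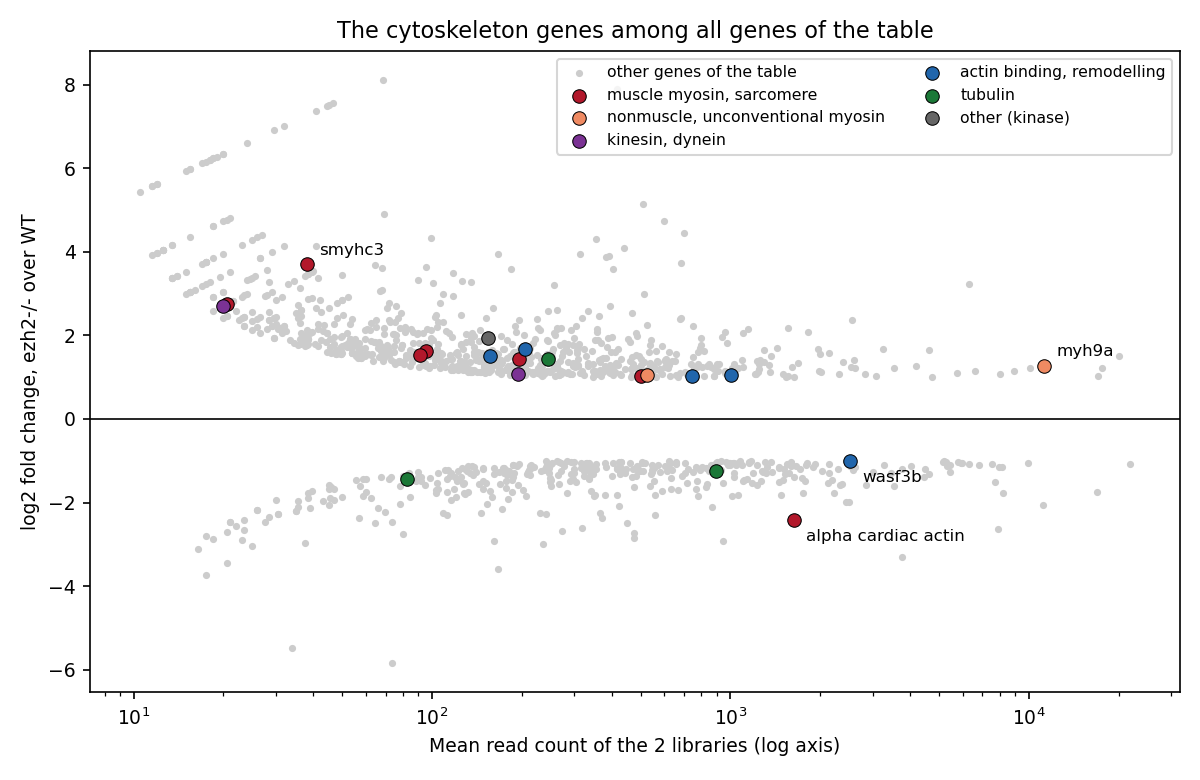
Log2 fold change, ezh2-/- over WT, against the mean read count of the 2 libraries (log axis) for the 20 genes, coloured by class, and for the other genes of the table in grey; the empty band around 0 is the authors' selection. Alpha cardiac actin, at -2.41, lies below most genes of like count, myh9a is among the best-counted genes of the table, and smyhc3, at 3.71, lies among genes with few counts.

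Ordered by role rather than by filament, a grouping made after the values were seen, the genes fell out unevenly on the authors' scale. All 7 motor proteins and motor subunits were higher (smyhc3, the fast heavy chain, myl4, myh9a, myo9b, KIF1C and the dynein heavy chain domain gene), with a median log2 fold change of 1.62; myh9a, myo9b and KIF1C changed sign on the median-centred scale. Both kinases were higher. Of 7 actin binding or linking proteins 6 were higher, with a median of 1.06, and filamin-B, GAS2-like protein 1 and actn2b of these changed sign on the median-centred scale. Of the 4 filament subunits 3 were lower, with a median of -1.34, and tubb6 was higher. One of the 3 lower ones is gene4705, of uncertain identity, and without it 2 of 3 were lower. Each count is set against a table in which 68.1% of genes were higher. By GO term the same genes were counted again, which adds no separate evidence: of the 5 listed genes annotated to motor activity, all of them in the set, 5 were higher (with the same 3 exceptions as among the motors), and of the 3 annotated as structural constituents of the cytoskeleton, also all in the set, 1 was higher. The difference between roles was not tested.

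FPKM and count ratios lay within 0.15 of each other on the log2 scale for 16 of the 20 genes. The exceptions were smyhc3, actn2b, the myosin light chain kinase gene1508 and death-associated protein kinase 2.

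**Figure D4:**
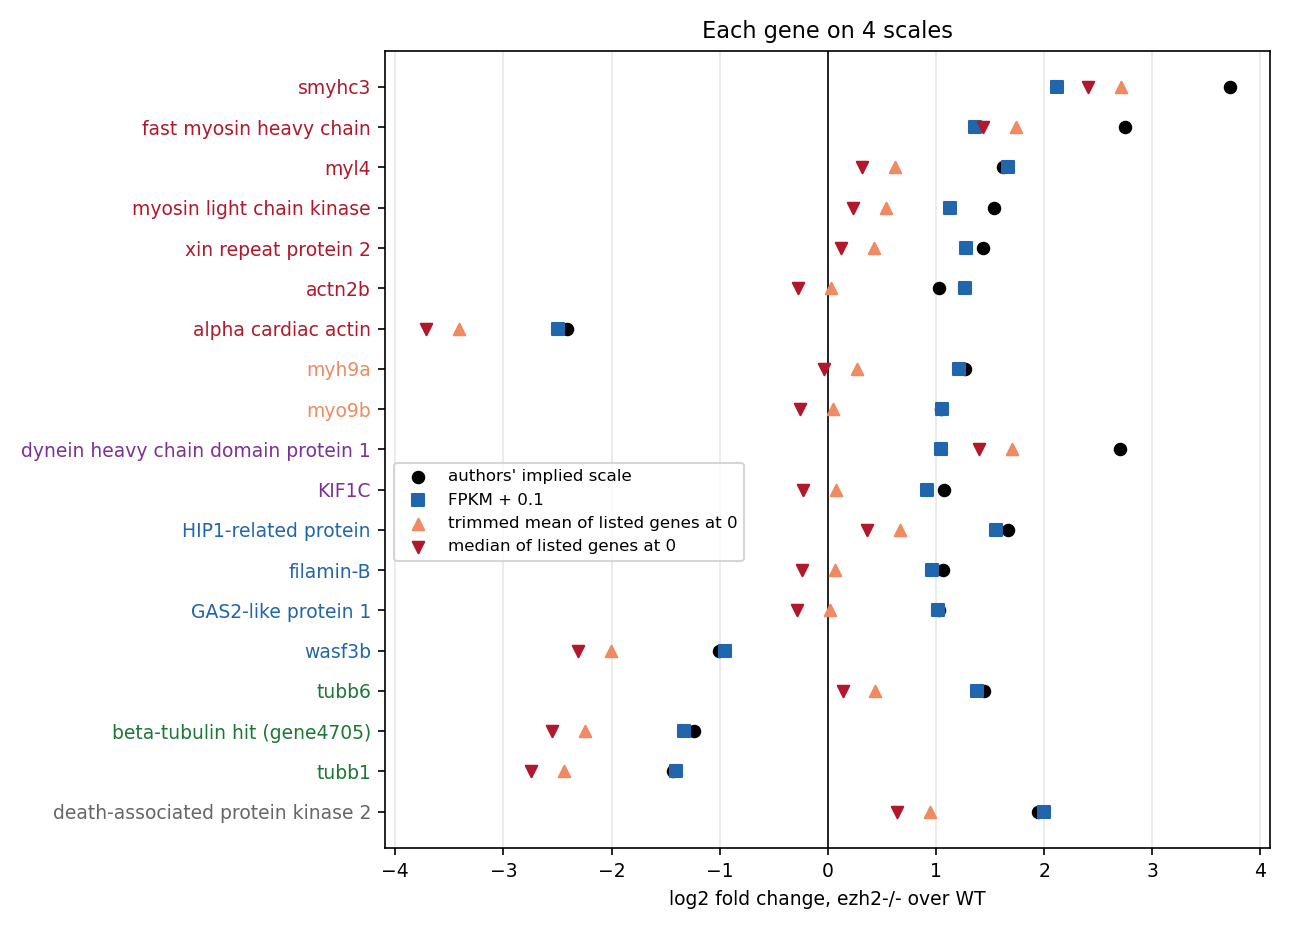
Log2 fold change, ezh2-/- over WT, of 19 of the 20 genes on the scale implied by the authors' values (circles), from FPKM with 0.1 added (squares), and with the trimmed mean (upward triangles) or median (downward triangles) of the listed genes set to 0. The downward triangles of actn2b, myh9a, myo9b, KIF1C, filamin-B and GAS2-like protein 1 cross 0 from the side of their circles.

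Related genes were looked up in 10 lists, among them epidermal, muscle, cilia and cell division genes. Of their 348 symbols 15 were matched, 13 of them at least 2-fold higher, beside 68.1% of the table, and 2 lower. Among the 20 genes are 4 of the 15 (myh9a, smyhc3, actn2b and myl4). Only 562 of the 1287 genes had a symbol, so an entry without a match may still be in the table. Of 45 target genes of serum response factor (SRF) 5 were listed and 5 were higher, beside 68.1% of the table. They were myh9a and the immediate-early genes egr1, fosab, junba and junbb. The list was drawn up with earlier results of these data known, so this count gives no separate evidence. The early growth response gene egr1 had 432 counts in the ezh2-/- library and 123 in the WT library, 3.55-fold higher (2.90 to 4.37). The AP-1 subunit gene junba had 462 counts in the ezh2-/- library and 50 in the WT library, 9.33-fold higher (6.96 to 12.8). These 4 immediate-early genes stayed higher on the median-centred scale. No cytoskeletal structural gene of that list other than myh9a was matched. None of 36 fast muscle genes was matched by symbol, and of 20 slow muscle genes smyhc3 alone was. The fast myosin heavy chain gene34178 is in the table but matched no entry. The lack of a match therefore does not show that fast muscle genes are absent. A fast muscle or heart list entry for cardiac actin could not be matched, since the actin row names no copy.

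In the epidermal list 3 of 35 genes were listed and all 3 were higher on the authors' scale, beside 68.1% of the table, but 1 of the 3 on the median-centred scale. The E-cadherin gene cdh1, which joins epithelial cells, had 3196 counts in the ezh2-/- library and 1081 in the WT library, 2.99-fold higher (2.79 to 3.20), and the others were the plakin genes evpla and ppl, which were lower on the median-centred scale. None of the 8 periderm markers was matched by symbol. Of 36 sarcomere assembly genes 1 was listed, the giant Z-disc and M-band protein gene obscurin, with 156 counts in the ezh2-/- library and 66 in the WT library, 2.39-fold higher (1.78 to 3.23) but lower on the median-centred scale. Of 21 myogenic regulators 1 was listed: pax3a, a muscle and neural crest progenitor factor, had 284 counts in the ezh2-/- library and 658 in the WT library, 2.29-fold lower (1.99 to 2.65). Of 42 genes of the division cytoskeleton 1 was listed: cenpf, which encodes a kinetochore protein, had 1163 counts in the ezh2-/- library and 2614 in the WT library, 2.23-fold lower (2.08 to 2.39).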

How the data were processed

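Per the labels' protocols, poly(A) RNA of whole embryos was made into libraries with a kit that does not mark strand, so overlapping antisense genes cannot be told apart. The submitters' processing notes name GRCz10, Bowtie 0.12.2 and Cufflinks, with no roles. The authors deposited raw read counts, FPKM, a log2 fold change and an FDR (adjusted p-value) per gene and selected the rows. The sources used here do not say how counts were made or tested.

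Log2 fold changes here are log2((ezh2-/- count + 0.5)/(WT count + 0.5)) plus 0.0144, the median offset of the authors' values from the bare log2 count ratio among the 391 genes that had 200 or more counts in each library. Folds are count ratios on that scale. Reads lack molecular identifiers, so intervals cover counting error only. Symbols (562 genes) came from KEGG hits via RefSeq GRCz12tu gene IDs, used for names alone, with 5 set by hand from product names. The steps were tested on simulated data (Python 3.11.15, scipy 1.17.1). Those data held counting error alone and a scale set in advance, so they do not test variation between embryos or libraries.

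Genes named were myh9a, smyhc3 and, in each class, up to 4 with the largest absolute fold among those with at least 50 counts in one library and up to 3 with the highest mean FPKM; classes of up to 3 were named in full. Genes, classes and lists were chosen with earlier results of these data known. The values of 1 of the 20 genes and of 1 of the 10 lists are not reported here.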

Additional observations from a re-analysis of the deposited data

How the results depend on the processing

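No paired analysis was possible because each genotype has 1 library, and no library could be left out. Of the alternatives, those without a scale, on the relative depth behind the FPKM, with 5 counts added, from the authors' deposited log2 fold change, with a minimum of 50 counts and without the 2 genes with conflicting names (chosen after seeing the data) moved neither count of genes by over 1.5 times. With the median of the listed genes at 0, 3 genes were at least 2-fold higher and the median log2 fold change was 0.044; with their trimmed mean at 0 these were 3 and 0.35. Both follow from the shift itself. On the first scale the sign changed for actn2b (-0.28), GAS2-like protein 1 (-0.28), myo9b (-0.26), filamin-B (-0.24), KIF1C (-0.23) and myh9a (-0.038), and the class medians of the actin-binding genes (-0.24) and nonmuscle myosins (-0.15) did too. Whole-word matches alone gave 10 higher genes of 13, beside 68.1% of the whole table. The KOG class alone gave a median of 1.07. Widened by the eggNOG class, a choice made after seeing the data, the set held 27 genes. Of these 8 were lower, beside 31.9% of the whole table. The median of the 27 was 1.07, beside 1.31 over all listed genes. From FPKM, 14 genes reached 2-fold higher and 3 reached 2-fold lower, wasf3b no longer among them. The shares of the whole table from FPKM and on the median and trimmed-mean scales are not given here. The counts on those settings therefore have no background beside them. Depth limits smyhc3, the fast myosin heavy chain and dynein heavy chain domain protein 1, each with 5 WT counts.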

Other observations

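Intermediate filament genes were in the table under names other than keratin and lay outside the rule; they were singled out after their values were seen. A vimentin-like gene (gene32807), of the filament of mesenchymal and glial cells, had 1033 counts in the ezh2-/- library and 2398 in the WT library, 2.30-fold lower (2.14 to 2.47). A second vimentin gene (gene39378) had 434 counts in the ezh2-/- library and 1065 in the WT library, 2.43-fold lower (2.17 to 2.72). A gene whose closest Swiss-Prot match is a desmin (gene5273) was 2.19-fold lower (2.06 to 2.33). In the other direction, synemin (gene29754), a partner of muscle intermediate filaments, had 195 counts in the ezh2-/- library and 56 in the WT library, 3.52-fold higher (2.60 to 4.82), and a lamin gene (gene27570) of the nuclear envelope was 2.29-fold higher (2.02 to 2.60), a direction that reverses on the median-centred scale.

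The eggNOG class Cytoskeleton added 7 genes that the KOG class missed, synemin among them, 3 higher on the authors' scale, beside 68.1% of the table, and 4 lower. On the median-centred scale synemin alone of the 3 stayed higher. The lower ones included the gene of vasodilator-stimulated phosphoprotein (gene20361), an actin filament elongation factor, with 3 counts in the ezh2-/- library and 30 in the WT library, a ratio of 9.90-fold lower (3.08 to 50.7). An MTSS1-like gene (gene29596), of a family that bends membranes and binds actin, had 463 counts in the ezh2-/- library and 1659 in the WT library, 3.55-fold lower (3.20 to 3.94). The centrosome gene ninein (gene24383) was 2.35-fold lower (2.12 to 2.62).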
